A study of Homo sapiens with 36 samples.

Results

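THP-1 cells, a human monocytic leukaemia line, were compared after 4 h of bacterial lipopolysaccharide (LPS) and after 4 h of the HIV-1 envelope protein gp120, in both cases under the p38 MAP kinase inhibitor SB203580 (SB). The arrays titled SB203580 + LPS at 4 h (3 arrays) were set against those titled SB203580 + gp120 at 4 h (3 arrays), which are 6 of the 36 arrays of the series. SB+LPS cells received 10 µM SB for 15 min and then 1 µg/ml LPS. SB+gp120 cells received the same pretreatment and then 1 nM gp120 of HIV-1 strain SF162. SB cells, used here as the baseline of gp120, received 10 µM SB without either stimulus, also for 4 h. The SB+LPS and SB+gp120 groups at 24 h received the same treatments for longer, and their arrays shared another slide. All of these groups had 3 biological replicates per the series text, which names dimethyl sulfoxide as the vehicle of SB and bovine serum albumin as that of gp120. All carry the inhibitor, so no value here shows what SB itself changed. The cells are 1 line in culture, used by the submitters as a model of monocytes, macrophages and microglia.

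LPS is handed by CD14 to the receptor complex of TLR4 and LY96, and the adaptors MYD88 and TICAM1 then carry the signal to the transcription factor NF-kB, to interferon regulatory factors and to the MAP kinases, p38 among them. Active p38, through the kinase MAPKAPK2, keeps many inflammatory mRNAs with AU-rich elements from being degraded by ZFP36. gp120 binds CD4 and then a chemokine receptor such as CXCR4, through which HIV-1 enters monocytes and macrophages.

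Each RNA sample was read on 1 Illumina HumanHT-12 v4 array, and values below are log2 intensities after background correction and quantile normalisation. The 6 arrays lay on 1 slide together with the SB arrays of 4 h. Their brightness was unequal. Mean raw signal was 403, 613 and 662 in SB+LPS arrays, against 648, 745 and 793 in SB+gp120 arrays, and the lowest of these, replicate 1 of SB+LPS, was the dimmest of all 36 arrays. The share of probes above background was 34.8% to 39.0% in SB+LPS arrays and 39.9% to 40.5% in SB+gp120 arrays, so the groups did not overlap in it. The part of this difference in the results was not tested, but counts of genes called are given without the dim array wherever they then move by more than 1.5 times. Markers of monocytes were present: 16 of 18 were detected on all 6 arrays. Markers of other cell types were mostly at background. Among T and NK cell markers 9 of 14 were detected on none of the 6 arrays, CD3E and CD8A among them. The same held for 6 of 9 B and plasma cell markers with MS4A1 and PAX5, for 5 of 9 erythroid and platelet markers with HBA1 and ALAS2, and for 9 of 11 fibroblast and epithelial markers with COL1A1 and EPCAM. Summed linear intensity of the T and NK markers ran from 877 to 1036 in SB+LPS arrays and from 672 to 863 in SB+gp120 arrays. That of the monocyte markers ran from 73380 to 106700 in SB+LPS arrays and from 73600 to 116000 in SB+gp120 arrays. In RNA of whole cultures, fewer cells of a type and less RNA per cell cannot be told apart.

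LPS and gp120 left these inhibitor-treated cells far apart at 4 h. Of 13582 genes tested, 1650 (12.1%) differed between SB+LPS and SB+gp120 at an adjusted p under 0.05, which is what "called" means below. Higher in SB+LPS were 699 genes (5.15%) and lower 951 (7%). The higher genes moved further: 76 were at least 8-fold higher, whereas the chemokine receptor gene CCR2 alone was at least 8-fold lower. At least 2-fold higher were 460 genes (3.39%) and at least 2-fold lower 385 (2.83%). The 3 SB+LPS arrays lay wholly above the 3 SB+gp120 arrays for 1213 genes (8.93%) and wholly below for 2059 (15.2%). All differences are SB+LPS minus SB+gp120 on the log2 scale, with the standard error (SE) and the Benjamini-Hochberg adjusted p of a limma fit to all 36 arrays, n = 3 per group. The median over all genes was −0.08.

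These counts depend on the dim array and on how arrays were scaled. Without replicate 1 of SB+LPS 1043 genes were called, 538 higher and 505 lower, and 958 of them were among the 1650. When each array was instead scaled to the same median, the median difference over all genes shifted by −0.40. Of the calls 16.9% were then higher, against 42.4% with quantile normalisation. That median was taken over all 47222 probes, of which at most 44.4% were above background on any array. It therefore lay at background, so equal medians align the background level of arrays and not the brightness of their expressed genes. The part of this in the calls that then moved was not tested. Deviations from the group means were most alike between arrays of the same replicate number. For number 2 the margin was small, with a correlation of 0.138 against 0.132 with another number. With the number as a block 2597 genes were called, 980 higher and 1617 lower, all 1650 among them. Each SE and p quoted for a gene comes from a fit without this block.

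**Figure D1:**
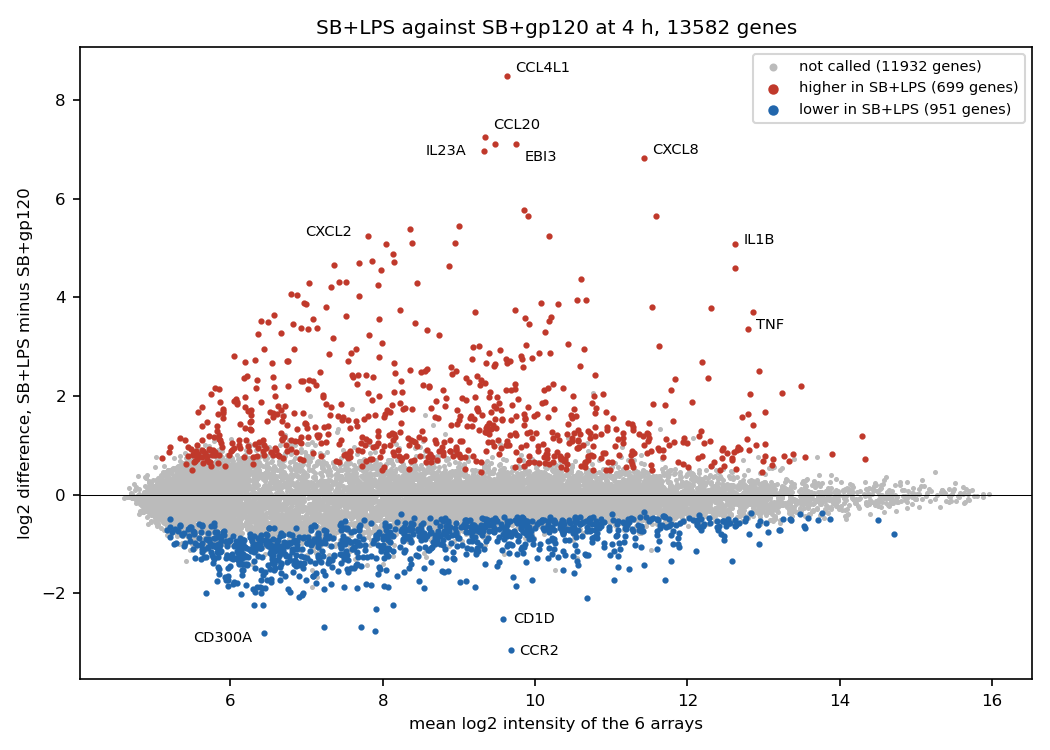
Log2 difference of SB+LPS minus SB+gp120 at 4 h (vertical axis) by the mean log2 intensity of the 6 arrays (horizontal axis), 1 point per gene; red points are the 699 genes called higher, blue the 951 called lower, and grey those not called. The red points reach 8.49, at CCL4L1, while the lowest blue point is CCR2 at −3.16.

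The promoters of 5 genes the results turn on are shown, to set their sequence beside their values: the chemokine genes CCL20, CXCL2 and CXCL10 and the cytokine gene IL23A, which rose, and CCR2, which fell most. Each is the RefSeq window from 250 bases before to 50 after the transcription start on GRCh38.p14, written in the direction of transcription. Capitals mark matches, on either strand, to the NF-kB consensus, to the interferon response core (GAAA, 2 bases of any kind, GAAA) and to the TATA box TATAAA. CCL20 lies on the plus strand at chr2:227813592-227813891, IL23A on the plus strand at chr12:56338634-56338933, CXCL2 on the minus strand at chr4:74099146-74099445, CXCL10 on the minus strand at chr4:76023448-76023747 and CCR2 on the plus strand at chr3:46353861-46354160.
CCL20: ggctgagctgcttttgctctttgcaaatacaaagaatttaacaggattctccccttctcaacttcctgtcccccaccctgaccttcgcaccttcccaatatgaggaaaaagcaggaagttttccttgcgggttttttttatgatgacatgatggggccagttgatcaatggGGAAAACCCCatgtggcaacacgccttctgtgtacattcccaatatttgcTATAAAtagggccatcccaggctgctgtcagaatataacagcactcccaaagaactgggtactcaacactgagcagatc
IL23A: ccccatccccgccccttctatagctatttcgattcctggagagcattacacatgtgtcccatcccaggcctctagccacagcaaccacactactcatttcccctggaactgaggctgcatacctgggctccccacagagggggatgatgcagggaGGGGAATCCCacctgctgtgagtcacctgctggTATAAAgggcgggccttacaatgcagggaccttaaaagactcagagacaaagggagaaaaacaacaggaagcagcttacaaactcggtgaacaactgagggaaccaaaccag
CXCL2: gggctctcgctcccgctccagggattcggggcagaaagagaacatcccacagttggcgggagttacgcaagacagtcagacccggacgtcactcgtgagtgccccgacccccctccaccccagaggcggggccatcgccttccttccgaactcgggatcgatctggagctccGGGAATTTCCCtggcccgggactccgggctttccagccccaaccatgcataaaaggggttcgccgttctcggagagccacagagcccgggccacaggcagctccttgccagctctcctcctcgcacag
CXCL10: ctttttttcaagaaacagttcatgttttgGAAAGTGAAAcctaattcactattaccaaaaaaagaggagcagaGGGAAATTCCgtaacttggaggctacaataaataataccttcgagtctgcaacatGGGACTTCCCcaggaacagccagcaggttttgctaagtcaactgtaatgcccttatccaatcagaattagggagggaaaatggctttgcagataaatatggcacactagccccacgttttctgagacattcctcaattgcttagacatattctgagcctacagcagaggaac
CCR2: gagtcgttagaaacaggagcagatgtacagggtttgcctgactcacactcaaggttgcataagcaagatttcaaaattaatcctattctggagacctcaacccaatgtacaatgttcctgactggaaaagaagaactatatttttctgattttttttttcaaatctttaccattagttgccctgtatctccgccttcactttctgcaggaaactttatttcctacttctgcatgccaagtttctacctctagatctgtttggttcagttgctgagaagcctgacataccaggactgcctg
These 5 genes are no sample of those that rose or fell. Of the 12 largest rises 9 had a window and 3 held an NF-kB match, CCL20, IL23A and CXCL2, and of the 12 largest falls 8 had one and 2 held a match, COQ8A and CD300A. CCL20 and IL23A each held 1 NF-kB match and 1 TATA box. CXCL2 held 2 NF-kB matches that overlap, and CXCL10 held 2 separate ones and 1 interferon response core. The CCR2 window held none of these letters. Over 35116 RefSeq windows of this length, 5.91% held the NF-kB consensus, 3.57% the interferon response core and 11.5% the TATA box. A match is a description of the letters and not of a factor bound there.

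At the level of the LPS receptor, signalling genes downstream moved and the receptor itself did not pass the test. Of 21 genes of the receptor complex and its adaptors, 5 were called higher and 0 lower (5.15% and 7% over all genes, shares that stand behind every list count at 4 h), and their median was 0.04, and −0.49 with equal medians. IRAK2, a kinase-like adaptor below MYD88, measured 13.30, 12.41 and 12.72 in SB+LPS arrays and 8.38, 7.43 and 6.88 in SB+gp120 arrays. The groups did not overlap, and IRAK2 rose by 5.24 (SE 0.390, limma adjusted p = 2.38e-11). TICAM1, the TLR4 adaptor that leads to interferon induction, rose by 1.97 (SE 0.284, adjusted p = 8.37e-06). The ubiquitin ligase TRAF3, which works with TICAM1, rose by 1.75, and TAB2, which couples ubiquitin chains to the kinase MAP3K7, by 1.43, though TAB2 lost its call when arrays were scaled to equal medians. TLR4 itself was dim, with 5.29, 6.04 and 6.08 in SB+LPS arrays against 6.17, 6.48 and 6.59 in SB+gp120 arrays. The SB+LPS values were all the lower, but the difference of −0.61 did not pass the test (adjusted p = 0.212). CD14 differed by −0.40 (adjusted p = 0.712), and LY96, detected on 1 array of each group, by −0.03 (adjusted p = 0.980).

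Most genes of the NF-kB list rose. NF-kB induces some of its own subunits and also its inhibitors, which limit the response in time. The list holds such genes and other NF-kB-related genes, the target ICAM1 among them. Of its 24 genes tested 20 were called higher and 0 lower, with a median of 2.39. Without replicate 1 of SB+LPS 17 were called higher, and with equal medians 16. MAP3K8, the kinase that links NF-kB1 release to ERK, measured 11.87, 11.31 and 11.31 in SB+LPS arrays against 6.39, 6.16 and 6.62 in SB+gp120 arrays. It had low spread within both groups and rose by 5.10 (SE 0.286, adjusted p = 5.34e-14). The adhesion molecule gene ICAM1, a standard NF-kB target, rose by 5.10 (SE 0.419, adjusted p = 1.86e-10) and was detected on 1 of 3 SB+gp120 arrays.

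TRAF1, an adaptor of TNF receptors, and TNIP3, an inhibitor of NF-kB, were detected on 3 SB+LPS arrays and no SB+gp120 array. TRAF1 was at least 23.5-fold higher (adjusted p = 1.20e-10) and TNIP3 at least 20.7-fold higher (adjusted p = 4.30e-12). These limits set the bright group against the background level of the dim arrays. NFKBIA, the classical inhibitor that holds NF-kB in the cytoplasm, measured 14.19, 13.69 and 13.70 in SB+LPS arrays against 12.69, 11.82 and 12.03 in SB+gp120 arrays. It was already bright in SB+gp120 cells and rose by 1.68 (SE 0.229, adjusted p = 3.31e-06). TNFAIP3, a ubiquitin-editing enzyme that limits NF-kB, rose by 2.42 (SE 0.335, adjusted p = 4.04e-06). Among the subunits, NFKB2 rose by 3.69, RELB by 2.67, REL by 2.58 and NFKB1 by 2.21, while RELA differed by −0.35 (adjusted p = 0.554).

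**Figure D2:**
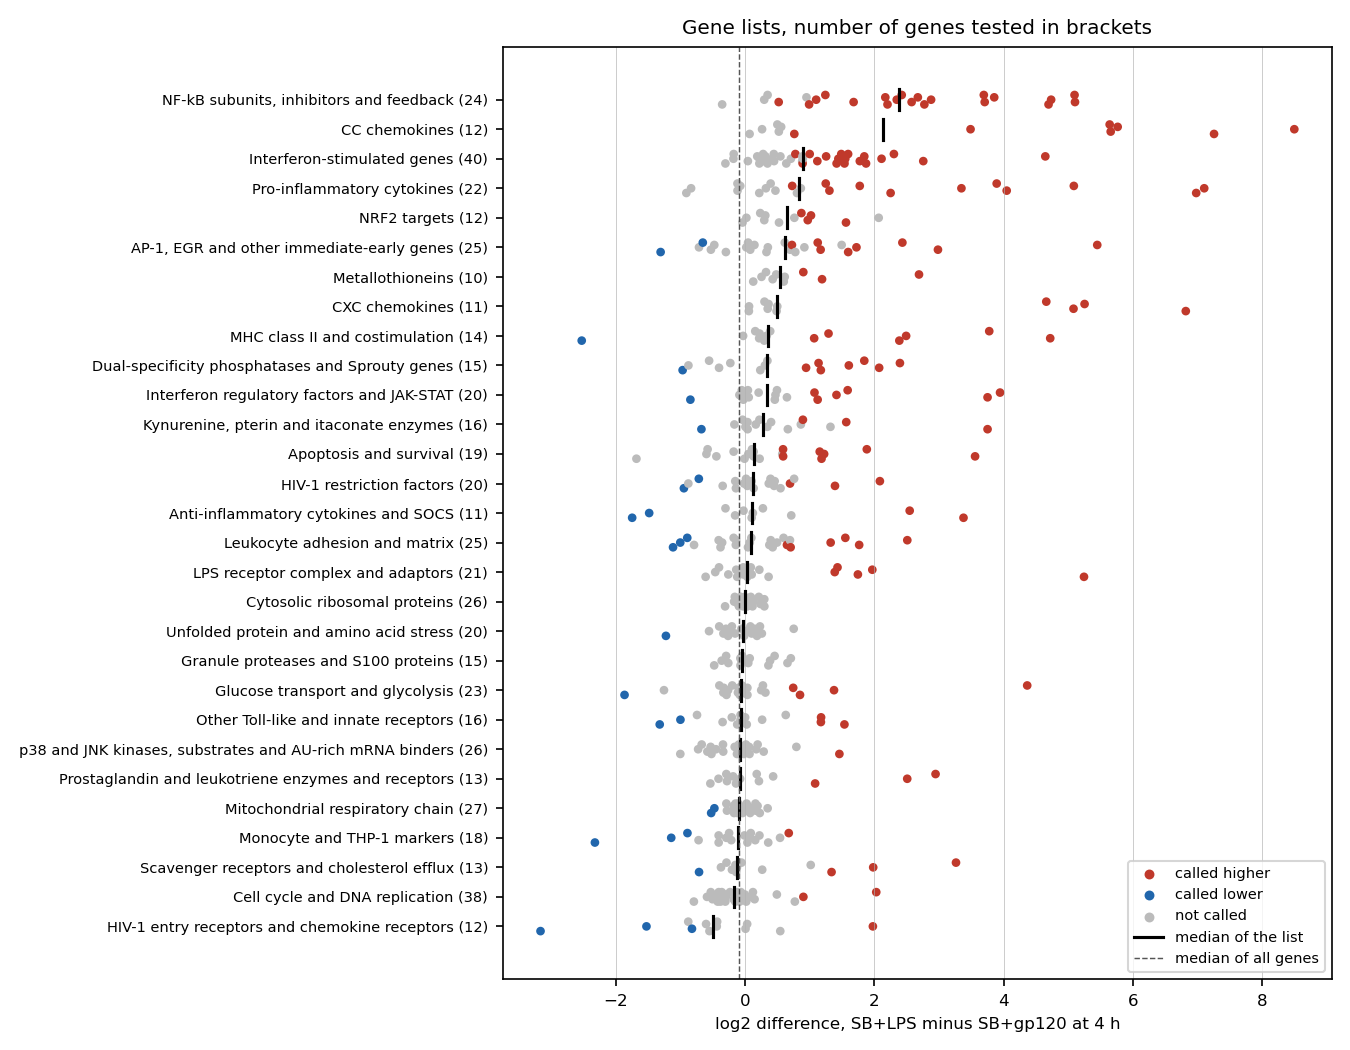
Log2 difference of SB+LPS minus SB+gp120 at 4 h (horizontal axis) for the members of 29 gene lists (rows, genes tested in brackets), 1 point per gene, red if called higher, blue if called lower and grey if not called; black bars are list medians and the dashed line is the median of all genes, −0.08. The NF-kB list has the highest median, 2.39, and the list of HIV-1 entry and chemokine receptors the lowest, −0.49.

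Pro-inflammatory cytokine genes divided into a group that rose steeply and a group that did not pass the test: of 22 tested, 11 were called higher and 0 lower. EBI3, the shared subunit of IL-27 and IL-35, measured 13.38, 13.40 and 13.13 in SB+LPS arrays against 6.85, 5.82 and 5.94 in SB+gp120 arrays, and rose by 7.10 (SE 0.376, adjusted p = 1.35e-14). IL23A, the subunit specific to IL-23, measured 13.39, 11.97 and 13.11 in SB+LPS arrays against 5.55, 6.29 and 5.69 in SB+gp120 arrays, of which 2 detected it. Its difference was 6.98 (SE 0.348, adjusted p = 5.35e-15). Both subunits were bright under LPS on all 3 arrays and near background under gp120.

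IL1B, the fever-inducing cytokine, measured 15.50, 14.85 and 15.16 in SB+LPS arrays against 10.38, 10.38 and 9.50 in SB+gp120 arrays, a rise of 5.09 (SE 0.543, adjusted p = 4.30e-08). Its relative IL1A, undetected in SB+gp120 arrays, was at least 9.40-fold higher (adjusted p = 1.65e-07). TNF measured 14.49, 14.22 and 14.69 in SB+LPS arrays against 10.66, 11.06 and 11.65 in SB+gp120 arrays. Unlike IL23A, IL1B and TNF were well above background in both groups, and TNF rose by 3.35 (SE 0.413, adjusted p = 5.99e-07). The subunit IL12B, shared by IL-12 and IL-23, was undetected in SB+gp120 arrays and was at least 9.47-fold higher (adjusted p = 4.30e-12), whereas IL12A was detected on none of the 6 arrays. IL6 was close to background, at 5.43, 6.57 and 6.09 in SB+LPS arrays, of which 2 detected it, and at 5.01, 5.05 and 5.43 in SB+gp120 arrays, none of which did. It was not called (adjusted p = 0.124), but was with limma array weights, which count arrays of larger spread less (difference 1.16, adjusted p = 0.0177).

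Chemokine genes held 7 of the 12 largest rises. Of 12 CC chemokines tested 7 were called higher and 0 lower, with a median of 2.13. The macrophage inflammatory protein genes lie in a cluster of near-identical copies, and the signals of CCL3, CCL3L1, CCL3L3 and CCL4L1 cannot be parted with certainty. The CCL4L1 probe measured 14.48, 13.08 and 14.09 in SB+LPS arrays against 5.81, 5.38 and 4.97 in SB+gp120 arrays, of which 1 detected it, and rose by 8.49 (SE 0.398, adjusted p = 2.89e-15). CCL3 rose by 5.76 (SE 0.448, adjusted p = 6.17e-11), CCL3L1 by 5.66 and CCL3L3 by 5.64. CCL20, which draws CCR6-bearing dendritic and T cells, measured 13.48, 12.15 and 13.27 in SB+LPS arrays against 5.97, 5.63 and 5.54 in SB+gp120 arrays. It rose by 7.25 (SE 0.451, adjusted p = 5.16e-13), and 1 SB+gp120 array detected it.

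CCL2, the ligand of CCR2, varied more under gp120, at 10.67, 9.91 and 9.91 in SB+LPS arrays against 8.41, 5.29 and 6.33 in SB+gp120 arrays. Replicate 1 was the highest of both groups, and the groups did not overlap. CCL2 rose by 3.49 (SE 0.728, adjusted p = 0.00119). CCL5, a chemokine that attracts T cells and monocytes, was bright in both, at 14.27, 13.65 and 13.84 in SB+LPS arrays against 13.36, 13.15 and 12.96 in SB+gp120 arrays. Its rise of 0.76 (SE 0.244, adjusted p = 0.0368) lost its call in 10 of the alternatives, among them those without replicate 1 of SB+LPS, with equal medians and with array weights.

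Of 11 CXC chemokines 4 were called higher and 0 lower. CXCL8, the neutrophil attractant interleukin-8, measured 14.98, 14.41 and 15.13 in SB+LPS arrays against 7.69, 7.89 and 8.49 in SB+gp120 arrays, and rose by 6.82 (SE 0.399, adjusted p = 1.54e-13). CXCL2 and CXCL1, which also act on neutrophils, were undetected in SB+gp120 arrays. CXCL2 measured 10.89, 9.24 and 11.16 in SB+LPS arrays and was at least 27.2-fold higher (adjusted p = 7.09e-09), and CXCL1 was at least 16.2-fold higher (adjusted p = 4.25e-08). CXCL10, an interferon-inducible attractant of T cells, measured 10.03, 10.94 and 10.77 in SB+LPS arrays against 5.48, 5.94 and 5.08 in SB+gp120 arrays, of which 1 detected it. Its rise was 5.08 (SE 0.266, adjusted p = 1.27e-14). The other 7 CXC genes lay between 0.06 and 0.50 and were not called.

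Other genes among the 12 largest rises were TNFAIP6, a hyaluronan-binding protein of inflamed tissue, IER3, an early-response gene that affects survival, and RNF144B, a ubiquitin ligase. TNFAIP6 measured 13.32, 12.69 and 13.08 in SB+LPS arrays against 5.59, 6.06 and 6.10 in SB+gp120 arrays, of which 2 detected it, and rose by 7.11 (SE 0.424, adjusted p = 2.22e-13). Its other detected probe was also called, at 0.71. IER3 rose by 5.45 (SE 0.408, adjusted p = 2.84e-11). RNF144B measured 12.08, 10.66 and 10.40 in SB+LPS arrays against 6.09, 5.40 and 5.48 in SB+gp120 arrays, of which 1 detected it. It rose by 5.39 (SE 0.417, adjusted p = 5.59e-11).

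**Figure D3:**
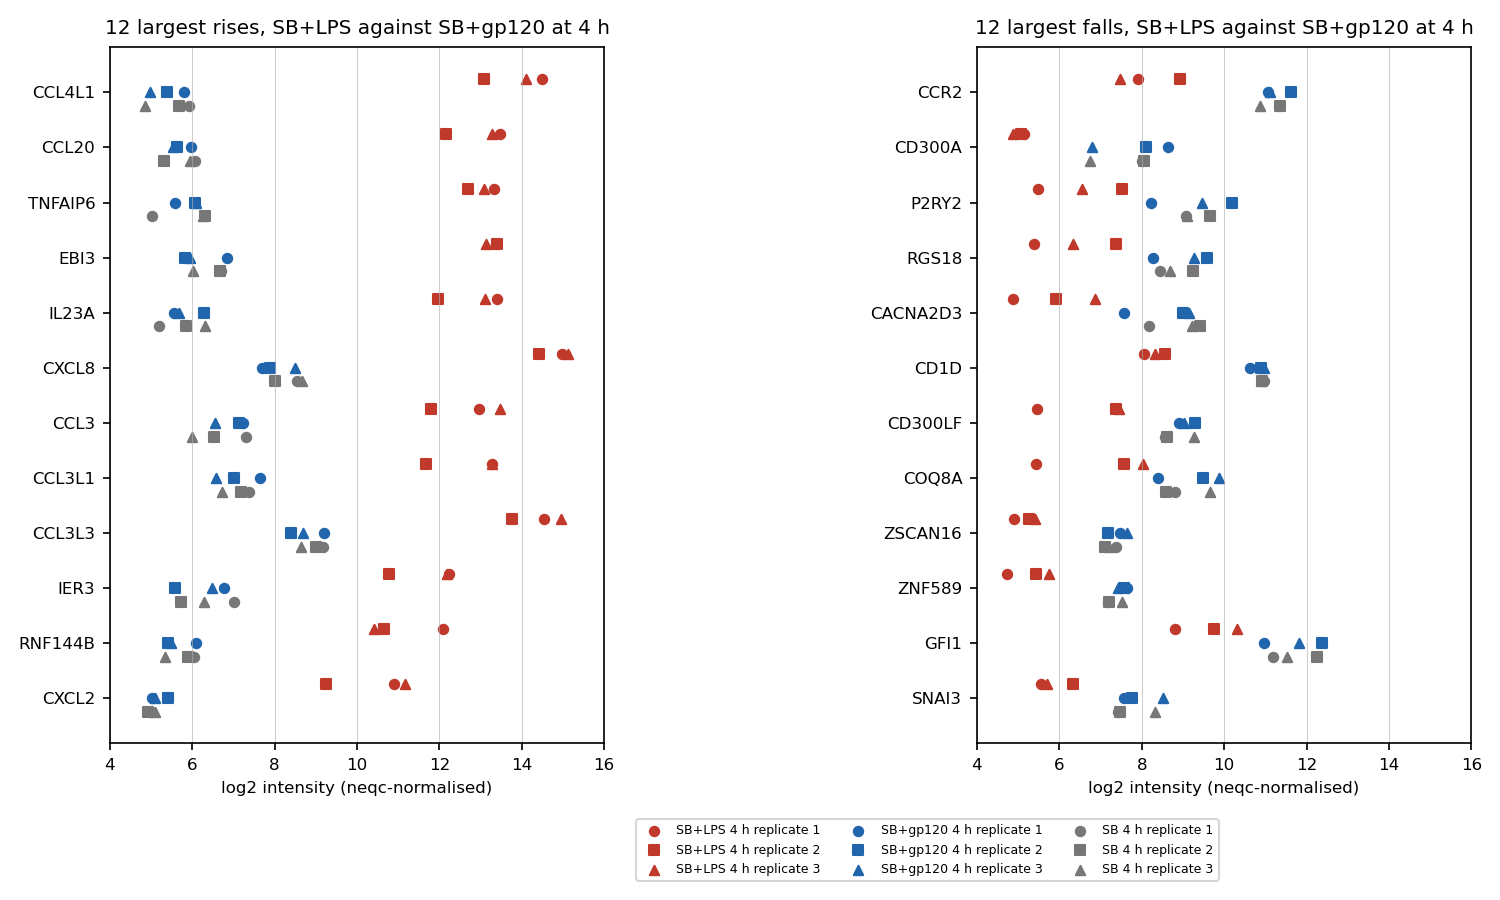
Log2 intensity on each array (horizontal axis) of the 12 genes with the largest rises (left) and the 12 with the largest falls (right) in SB+LPS against SB+gp120 at 4 h; each symbol is 1 array, red for SB+LPS, blue for SB+gp120 and grey for SB, and its shape gives the replicate. Blue and grey symbols lie together, and the red ones stand apart from the blue, as the choice of these genes required.

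Interferon-stimulated genes, which carry the antiviral response, were called in part: of 40 tested, 20 were called higher, 0 lower and 20 not called, with a median of 0.89. Without replicate 1 of SB+LPS 15 were called, without replicate 1 of both groups 10, with equal medians 6 and with only the 6 arrays in the fit 3, all of them higher. GBP2, a guanylate-binding protein, measured 10.69, 11.65 and 11.25 in SB+LPS arrays against 5.56, 7.29 and 6.80 in SB+gp120 arrays, of which 2 detected it, and rose by 4.64 (SE 0.349, adjusted p = 2.88e-11). IFIT1, which binds viral RNA, measured 10.78, 11.73 and 9.15 in SB+LPS arrays against 8.04, 8.24 and 7.11 in SB+gp120 arrays. Replicate 3 was lowest in both groups, and the rise was 2.76 (SE 0.567, adjusted p = 0.00101). OASL, an enhancer of RIG-I signalling, rose by 2.30 (adjusted p = 6.79e-04), and EPSTI1 by 2.11 (adjusted p = 0.00538), but EPSTI1 was not called with equal medians. The other detected probe was at 0.21 for IFIT1 and 0.32 for OASL, neither called. ISG15, the ubiquitin-like modifier, rose by 1.55 and OAS1 by 1.60.

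The transcription factors and receptors of the interferon and JAK-STAT pathways were mixed, with 6 of 20 called higher and 1 lower. Their median was 0.34, and −0.27 with equal medians, where 3 were called higher and 1 lower. STAT5A, a transducer of cytokine signals, was among the most precisely measured rises, at 12.89, 12.28 and 12.76 in SB+LPS arrays against 8.72, 8.77 and 8.60 in SB+gp120 arrays. It rose by 3.94 (SE 0.197, adjusted p = 5.35e-15), and STAT4 by 3.75 (SE 0.326, adjusted p = 5.60e-10). IRF7, which amplifies type I interferon, rose by 1.59 (adjusted p = 0.00472) without a call at equal medians, and the interferon gamma receptor chain IFNGR2 by 1.42 (adjusted p = 1.13e-07). IRF5, another factor downstream of Toll-like receptors, fell by 0.84 (adjusted p = 0.00966).

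The kinases and mRNA-binding proteins of the inhibited pathway gave calls that depended on the fit. Of 26 genes of the p38 and JNK pathways and binders of AU-rich mRNA, 1 was called higher and 0 lower, and with the replicate block 2 higher and 4 lower. The gene called without the block was MAP2K3, a kinase that activates p38, at 12.34, 12.01 and 12.35 in SB+LPS arrays against 10.68, 10.75 and 10.88 in SB+gp120 arrays. It rose by 1.46 (SE 0.177, adjusted p = 4.23e-07). Its 4 detected probes ran from 0.61 to 1.46, and 2 of them were called. ZFP36, the mRNA-destabilising protein that p38 signalling restrains, measured 12.00, 12.20 and 12.31 in SB+LPS arrays and 12.09, 12.30 and 12.14 in SB+gp120 arrays. The groups overlapped (difference −0.01, SE 0.186, adjusted p = 0.991). MAPKAPK2, the kinase through which p38 acts on ZFP36, differed by 0.02 (adjusted p = 0.977).

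Immediate-early genes and the phosphatases that end MAP kinase signals changed in both directions. Of 25 AP-1, EGR and related genes, 8 were called higher and 2 lower, and with equal medians 4 and 3. JUN, a core AP-1 subunit, measured 11.00, 10.25 and 10.76 in SB+LPS arrays against 8.84, 6.90 and 7.32 in SB+gp120 arrays, and rose by 2.98 (SE 0.582, adjusted p = 5.68e-04). MAFF, a small MAF factor, rose by 2.44 (adjusted p = 2.96e-06) and the orphan nuclear receptor NR4A2 by 1.73 (adjusted p = 0.00154), the second without a call at equal medians. KLF4 and MYC were the members called lower, at −1.30 (adjusted p = 0.00986) and −0.65 (adjusted p = 0.0218). EGR1 was bright in both groups, at 11.59, 11.55 and 13.01 in SB+LPS arrays and 12.25, 11.70 and 13.08 in SB+gp120 arrays, with replicate 3 highest in each. It was not called (adjusted p = 0.700).

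Of 15 dual-specificity phosphatase and Sprouty genes, 7 were called higher and 1, SPRY2, lower. Without replicate 1 of SB+LPS 4 were called higher and 0 lower, and with equal medians 2 and 1. DUSP2, a phosphatase of immune cells, rose by 2.40 (SE 0.335, adjusted p = 4.99e-06). SPRED2, an inhibitor of the ERK pathway, rose by 2.08 (SE 0.302, adjusted p = 9.35e-06). DUSP1, which dephosphorylates p38 and JNK, measured 8.35, 7.24 and 8.75 in SB+LPS arrays against 6.49, 6.25 and 6.77 in SB+gp120 arrays. The groups did not overlap, and DUSP1 rose by 1.61 (SE 0.359, adjusted p = 0.00247). With equal medians DUSP1 was not called, nor was DUSP8 (1.85).

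Mediator enzymes formed a smaller group. Of 13 prostaglandin and leukotriene genes 3 were called higher and 0 lower. PTGS2, the inducible cyclooxygenase, measured 10.24, 9.62 and 10.79 in SB+LPS arrays against 7.67, 7.34 and 8.11 in SB+gp120 arrays, and rose by 2.51 (SE 0.318, adjusted p = 9.69e-07). The prostaglandin E2 receptors PTGER2 and PTGER4 rose by 2.95 (adjusted p = 1.36e-05) and 1.09 (adjusted p = 1.73e-04), the second not called at equal medians. Of 16 kynurenine, pterin and itaconate enzymes 3 were called higher and 1 lower, and without replicate 1 of SB+LPS 2 and 0. GCH1, which starts tetrahydrobiopterin synthesis, rose by 3.75 (SE 0.267, adjusted p = 8.99e-12), and KYNU, which cleaves kynurenine, by 1.57 (SE 0.188, adjusted p = 3.75e-07). HAAO, which makes the precursor of quinolinic acid, differed by 0.90 (adjusted p = 0.0262) and by 0.58 without that array, where it was not called. KYAT1, a kynurenine aminotransferase, differed by −0.67 (adjusted p = 0.0426) and by −0.41, also uncalled, without it.

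Genes that restrain inflammation went both ways, with 2 of 11 called higher and 2 lower, against 5.15% and 7% of all genes. Their median was 0.11, and −0.54 with equal medians. IL10, the main anti-inflammatory cytokine, was bright in all groups, at 12.08, 12.34 and 12.18 in SB+LPS arrays, 12.51, 11.85 and 11.87 in SB+gp120 arrays and 12.86, 11.58 and 12.00 in SB arrays. SB+LPS and SB+gp120 overlapped (difference 0.12, SE 0.261, adjusted p = 0.830). SOCS3, which shuts off IL-6 family signals, was detected on 3 SB+LPS arrays and no SB+gp120 array, and was at least 8.97-fold higher (adjusted p = 5.97e-09). The receptor chain IL10RA rose by 2.55 (SE 0.550, adjusted p = 0.00172). SOCS2 and CISH, both targets of STAT5 signalling, fell: SOCS2 by 1.48 (SE 0.290, adjusted p = 6.06e-04), while CISH, undetected in SB+LPS arrays, was at least 2.80-fold lower (adjusted p = 0.00281).

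The receptors through which HIV-1 enters did not include a called change in CD4 or CXCR4. Of 12 entry and chemokine receptor genes 1 was called higher and 3 lower, with a median of −0.49. CD4 measured 8.38, 8.59 and 8.48 in SB+LPS arrays and 8.73, 8.27 and 8.34 in SB+gp120 arrays, and the groups overlapped (difference 0.04, SE 0.236, adjusted p = 0.952). CXCR4 was detected on no SB+LPS array and 1 SB+gp120 array (adjusted p = 0.512). CCR2, the receptor that brings monocytes out of the marrow, measured 7.92, 8.93 and 7.47 in SB+LPS arrays against 11.06, 11.62 and 11.11 in SB+gp120 arrays. It fell by 3.16 (SE 0.374, adjusted p = 3.01e-07), the largest called fall. Its 6 detected probes ran from −3.54 to 0.36, and 4 of them were called lower.

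CX3CR1, the fractalkine receptor, fell by 1.52 (SE 0.347, adjusted p = 0.00291), and its second probe, at −1.30, was also called. The integrin chain ITGB7, part of a gut-homing receptor that gp120 can bind, differed by −0.82 (adjusted p = 0.0463) and was not called without replicate 1 of SB+LPS. ACKR3, a scavenging receptor of CXCL12, was undetected in SB+gp120 arrays and at least 2.86-fold higher in SB+LPS arrays (adjusted p = 4.12e-04). It measured 5.44, 5.03 and 5.15 in SB+gp120 arrays against 6.63, 6.23 and 5.51 in SB arrays, of which 2 detected it.

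Of 20 HIV-1 restriction factors 3 were called higher and 2 lower, against 5.15% and 7% of all genes, and with equal medians 0 and 2. Their median was 0.12, and −0.10 with equal medians. MX2, which blocks nuclear import of the virus, measured 9.59, 9.89 and 8.09 in SB+LPS arrays against 7.44, 7.37 and 6.50 in SB+gp120 arrays, and rose by 2.09 (SE 0.465, adjusted p = 0.00238). The exonuclease ISG20 rose by 1.39 (adjusted p = 4.75e-04) and the capsid-binding TRIM5 by 0.70 (adjusted p = 0.0303). SLFN11, which limits viral protein synthesis, fell by 0.71 (SE 0.183, adjusted p = 0.00817). The deaminase APOBEC3F differed by −0.94 (adjusted p = 0.0265) and by −0.61 without replicate 1 of SB+LPS, where it was not called, and its 4 detected probes disagreed in sign.

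In antigen presentation, costimulatory genes rose and the class II genes did not pass the test. Of 14 tested 6 were called higher and 1 lower. CD40, the receptor of T cell help, measured 11.53, 10.10 and 9.91 in SB+LPS arrays against 6.43, 5.49 and 5.46 in SB+gp120 arrays, of which 1 detected it, and rose by 4.72 (SE 0.438, adjusted p = 2.41e-09). CD83, a marker of activated dendritic cells, rose by 3.78 (SE 0.411, adjusted p = 6.20e-08) and SLAMF8 by 2.49 (SE 0.343, adjusted p = 3.79e-06). CD1D, which presents lipids to natural killer T cells, measured 8.06, 8.57 and 8.32 in SB+LPS arrays against 10.64, 10.90 and 10.98 in SB+gp120 arrays. Its groups lay well apart and it fell by 2.52 (SE 0.253, adjusted p = 1.24e-08). HLA-DRA differed by 0.34 and CD74 by 0.23, neither of them called.

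Adhesion and matrix genes had 6 of 25 called higher and 3 lower, with a median of 0.10. With equal medians 2 were called higher and 2 lower, and the median was −0.03. CD44, the hyaluronan receptor, measured 14.55, 14.10 and 13.96 in SB+LPS arrays against 12.43, 11.30 and 11.35 in SB+gp120 arrays, and rose by 2.51 (SE 0.352, adjusted p = 5.04e-06). VCAM1, a ligand of integrins, was undetected in SB+gp120 arrays and at least 2.66-fold higher (adjusted p = 5.78e-07). The protease genes PLAU and MMP1 rose by 1.55 (adjusted p = 0.00315) and 1.33 (adjusted p = 0.00104), neither of them called with equal medians. MMP9 was above background on none of the 6 arrays. The integrin chain ITGAL fell by 1.00 (adjusted p = 5.07e-04).

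Of 13 scavenger receptor and cholesterol genes 3 were called higher and 1 lower, and without replicate 1 of SB+LPS 2 and 0. OLR1, a receptor of oxidised LDL, was undetected in SB+gp120 arrays and at least 5.02-fold higher (adjusted p = 9.43e-11). The lipase LPL rose by 1.98 (SE 0.230, adjusted p = 2.01e-07). PPARG, a lipid-sensing nuclear receptor, rose by 1.34 (adjusted p = 0.00884) and was not called without that array or with equal medians, and SCARB1, an HDL receptor, at −0.71 (adjusted p = 0.0496) was not called without it.

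Survival and stress genes rose in part. Of 19 apoptosis genes 7 were called higher and 0 lower, with a median of 0.14, but with equal medians 2 were called and the median was −0.09. BCL2A1, an NF-kB-dependent survival factor, measured 10.71, 8.79 and 9.68 in SB+LPS arrays against 6.84, 6.12 and 5.53 in SB+gp120 arrays, of which 2 detected it. It rose by 3.56 (SE 0.387, adjusted p = 6.28e-08), while the pro-apoptotic BID rose by 1.89 (SE 0.243, adjusted p = 1.26e-06). Of 10 metallothionein and metal transport genes 3 were called higher and 0 lower, 5 and 0 with the replicate block, with a median of 0.54, and −0.10 with equal medians. MT2A, a metal-binding protein, rose by 2.69 (SE 0.284, adjusted p = 3.48e-08). Of 12 targets of the oxidative stress factor NRF2 4 were called higher and 0 lower, and none with equal medians. SLC7A11, the cystine importer, rose most among those called, by 1.56 (SE 0.396, adjusted p = 0.00743).

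Glucose metabolism held 4 genes called higher and 1 lower of 23, with a median of −0.06. With equal medians 1 was called higher and 1 lower, and the median was −0.45. SLC2A6, a transporter of the lysosomal membrane, measured 13.00, 12.84 and 12.52 in SB+LPS arrays against 8.23, 8.50 and 8.54 in SB+gp120 arrays, a tightly measured rise of 4.37 (SE 0.220, adjusted p = 5.35e-15). HIF1A, the oxygen-sensing factor that drives glycolysis genes, rose by 1.38 (adjusted p = 0.00114), without a call at equal medians. HK2, a hexokinase, measured 5.83, 7.35 and 8.09 in SB+LPS arrays, of which 2 detected it, against 8.08, 9.50 and 9.27 in SB+gp120 arrays. The groups touched, since the highest SB+LPS value passed the lowest SB+gp120 value. HK2 fell by 1.86 (SE 0.385, adjusted p = 0.00110), and by 1.23 without replicate 1 of SB+LPS. Its other detected probe was at −0.90 and was not called.

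Genes of the basic machinery of the cell gave 0 to 2 calls per list. None of 26 ribosomal protein genes was called by limma; they lay between −0.31 and 0.30. Of 38 cell cycle and replication genes 2 were called higher and 0 lower, and with the replicate block 2 higher and 4 lower. CCND1, a cyclin of the G1 phase, rose by 2.03 (SE 0.455, adjusted p = 0.00252) and its partner kinase CDK6 by 0.90 (SE 0.144, adjusted p = 3.76e-05). Of 27 respiratory chain genes 0 were called higher and 2 lower, NDUFS3 and ATP5F1A, neither called without replicate 1 of SB+LPS. Of 20 unfolded protein and amino acid stress genes 1, VLDLR, was called lower, again not without that array. None of the 15 genes of granule proteases and S100 proteins was called; with the replicate block 2 were.

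Among 18 monocyte markers 1 was called higher and 3 lower, against 5.15% and 7% of all genes. CSF1R, the receptor of macrophage colony-stimulating factor, measured 10.90, 10.40 and 10.12 in SB+LPS arrays against 12.21, 11.40 and 11.22 in SB+gp120 arrays, and fell by 1.14 (SE 0.327, adjusted p = 0.0189). The Fc receptor FCGR2A fell by 0.89 (SE 0.219, adjusted p = 0.00585). LYN, a kinase of these receptors, rose by 0.68 (adjusted p = 0.0214) and was not called without replicate 1 of SB+LPS. Of 4 tested B cell markers CR2 was called higher and CD79B lower, neither without that array, and CR2 had probes of opposite sign. No T and NK, erythroid and platelet or fibroblast and epithelial marker was called, with 7, 5 and 4 tested. Of 16 other innate receptors 3 were called higher and 2 lower, against the same shares. The RNA sensors IFIH1 and RIGI rose by 1.54 (adjusted p = 1.03e-04) and 1.18 (adjusted p = 0.00549), the second not with equal medians. TLR7 values were 5.13, 6.27 and 7.52 in SB+LPS arrays, of which 2 detected it. In SB+gp120 arrays they were 5.08, 5.20 and 5.11, none of them above background. The groups overlapped, and TLR7 was called (adjusted p = 0.0358) in 9 of 20 settings. TLR1, which pairs with TLR2, was undetected in SB+LPS arrays and at least 1.33-fold lower (adjusted p = 0.00476).

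The 12 largest falls included several receptors and regulators of myeloid cells besides CCR2 and CD1D. CD300A, an inhibitory receptor, measured 5.14, 5.08 and 4.88 in SB+LPS arrays, none of them above background, against 8.64, 8.11 and 6.79 in SB+gp120 arrays. It was at least 3.96-fold lower (adjusted p = 2.28e-04). Its relative CD300LF fell by 2.32 (SE 0.454, adjusted p = 5.93e-04). P2RY2, a receptor of extracellular ATP and UTP, measured 5.49, 7.51 and 6.55 in SB+LPS arrays against 8.23, 10.18 and 9.46 in SB+gp120 arrays, and fell by 2.77 (SE 0.459, adjusted p = 6.87e-05). Both groups were lowest in replicate 1, and they did not overlap. The SB+LPS value there, 5.49, lay below the lowest signal of any detected probe on that array, 6.06.

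RGS18, a brake on G protein signalling in blood cells, fell by 2.68 (SE 0.471, adjusted p = 1.50e-04) and the calcium channel subunit CACNA2D3 by 2.68 (SE 0.585, adjusted p = 0.00194). GFI1, a repressor that steers myeloid differentiation, measured 8.81, 9.76 and 10.31 in SB+LPS arrays against 10.98, 12.38 and 11.82 in SB+gp120 arrays, and fell by 2.10 (SE 0.369, adjusted p = 1.53e-04). The zinc finger genes ZNF589 and SNAI3 fell by 2.23 (adjusted p = 3.33e-05) and 2.09 (adjusted p = 3.31e-04), and ZSCAN16, undetected in SB+LPS arrays, was at least 2.97-fold lower (adjusted p = 3.22e-09). The other detected probe of ZNF589 was at −0.86 and was not called. COQ8A, needed for coenzyme Q synthesis, fell by 2.24 (SE 0.463, adjusted p = 0.00108), and by 1.45 without replicate 1 of SB+LPS. That dim array held the lowest SB+LPS value in 10 of these 12 genes, and the highest SB+LPS value in 6 of the 12 largest rises. All 24 genes were called without it. Of the 12 largest falls 3 were detected on all 3 SB+LPS arrays, against all 12 of the largest rises. Where an SB+LPS array failed detection, the fall is a fitted value that depends on the background level.

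The SB arrays show where the gp120 side of the comparison stood without a stimulus. SB+gp120 and SB share no arrays with each other, but the SB+gp120 arrays serve in both comparisons, so values are given side by side and not as independent results. Of 13582 genes, limma called 0 (0%) between SB+gp120 and SB at 4 h. The smallest adjusted p was 0.833, and 539 genes had an unadjusted p under 0.05. With the replicate block 0 were called, with array weights 72 (10 higher and 62 lower), and without replicate 1 of SB+gp120 1. The median absolute difference was 0.14 here and 0.26 for SB+LPS against SB+gp120. The smallest p belonged to RASA2, a regulator of RAS, at 6.40, 4.93 and 5.35 in SB+gp120 arrays against 7.14, 7.78 and 6.47 in SB arrays. RASA2 differed by −1.57 (adjusted p = 0.833) and was detected on 1 SB+gp120 array. FGFR1OP2 (−0.68), ARID4B (−1.06), RAB3GAP1 (−0.69) and TCHP (0.66) followed, each with an adjusted p of 0.893.

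Of the 115 called genes named by rule, SB+gp120 and SB arrays overlapped for 108 and did not for STAT5A, SPRED2, ACKR3, NR4A2, PTGER4, ATP5F1A and SCARB1. That share was not computed over all genes, so it is not read as particular to the named ones. TNF measured 10.66, 11.06 and 11.65 in SB+gp120 arrays and 11.07, 10.95 and 11.54 in SB arrays. CXCL8 measured 7.69, 7.89 and 8.49 in SB+gp120 arrays and 8.53, 8.02 and 8.67 in SB arrays. CCR2 measured 11.06, 11.62 and 11.11 in SB+gp120 arrays and 11.32, 11.35 and 10.86 in SB arrays. The median difference of SB+gp120 minus SB was −0.01 over the NF-kB list and −0.03 over the interferon-stimulated genes. These values do not show that gp120 had no effect, since a p that misses the threshold leaves room for small changes.

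At 24 h fewer genes were called in the fit to all arrays, but with only the arrays of the groups compared the order turned, at 481 genes for 4 h and 636 for 24 h. SB+LPS against SB+gp120 at 24 h called 622 genes (4.58%), 391 higher (2.88%) and 231 lower (1.7%), and with the replicate block 1264. Whether a gene's difference itself changed with time was tested as the difference at 4 h minus that at 24 h. This time difference was called for 613 genes (4.51%), 277 in the direction of a higher value at 4 h (2.04%) and 336 the other way (2.47%), and with the block for 1414 (596 and 818). Of the NF-kB list 14 of 24 were called higher at 24 h, with a median of 1.23, against 20 and 2.39 at 4 h, and 11 had a called time difference, all toward 4 h. Interferon-stimulated genes had 29 of 40 called higher at 24 h, with a median of 1.63, against 20 and 0.89 at 4 h. The time difference was called for 1 of them toward 4 h and for 3 toward 24 h. The HIV-1 restriction factors had 10 of 20 called higher at 24 h, against 3 at 4 h, and 3 had a called time difference, all toward 24 h.

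Several adaptors and kinases had their difference mostly at 4 h. MAP3K8 differed by 5.10 at 4 h and 1.31 at 24 h (adjusted p of the time difference = 5.71e-07), and STAT5A by 3.94 and 0.61 (adjusted p = 1.10e-08). IRAK2 differed by 5.24 at 4 h and 1.44 at 24 h (adjusted p = 4.58e-05), and CD1D by −2.52 and 0.43 (adjusted p = 4.69e-06). TNF, in contrast, differed by 3.35 at 4 h and 2.67 at 24 h, and NFKBIA by 1.68 and 1.98, without a called time difference (adjusted p = 0.609 and 0.705). IL6 was called at 24 h, with a difference of 2.77 (adjusted p = 4.72e-06), and its time difference was called (adjusted p = 0.0257). CD14 was higher in SB+LPS at 24 h by 2.69 (adjusted p = 0.00164) after −0.40 at 4 h (adjusted p of the time difference = 0.0139). LY96 likewise differed by 2.24 at 24 h (adjusted p = 4.58e-04) and had a called time difference (adjusted p = 0.0160).

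**Figure D4:**
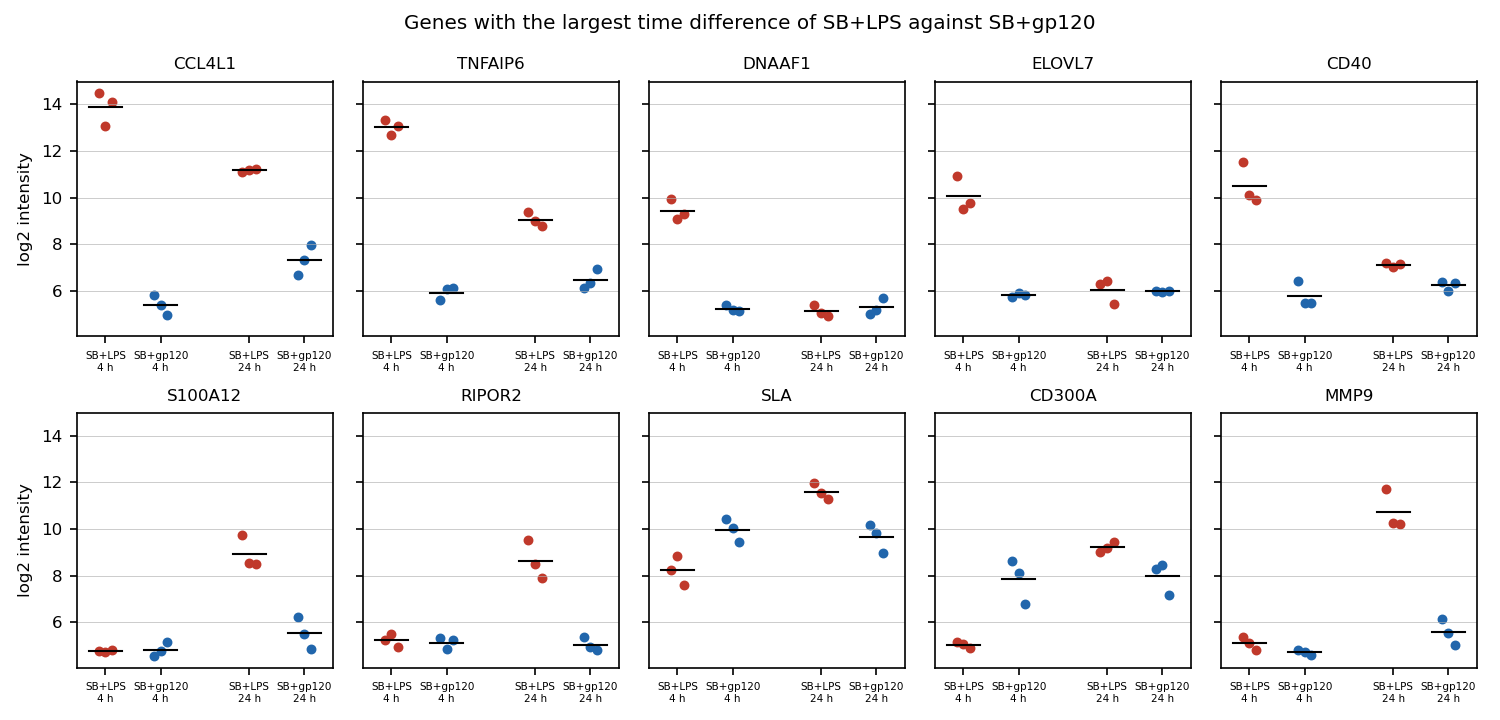
Log2 intensity (vertical axis) of the 10 genes with the largest called time differences, in SB+LPS (red) and SB+gp120 (blue) at 4 h and at 24 h; points are arrays and bars are group means of 3. In the upper row the red points stand highest at 4 h, at 9.07 or above, and in the lower row at 24 h, at 7.90 or above.

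The count of called genes moved with the arrays and settings used. Of the 125 genes named by rule or fixed list, 115 were called, and none of the called ones changed sign in any of the 19 alternatives. Most of these were named because they were called with large differences in the same data, which favours a stable sign. Among the named genes not called, IL10 ran from −0.395 to 0.397 and CD4 from −0.585 to 0.229. ZFP36, LY96 and EGR1 also changed sign.

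**Figure D5:**
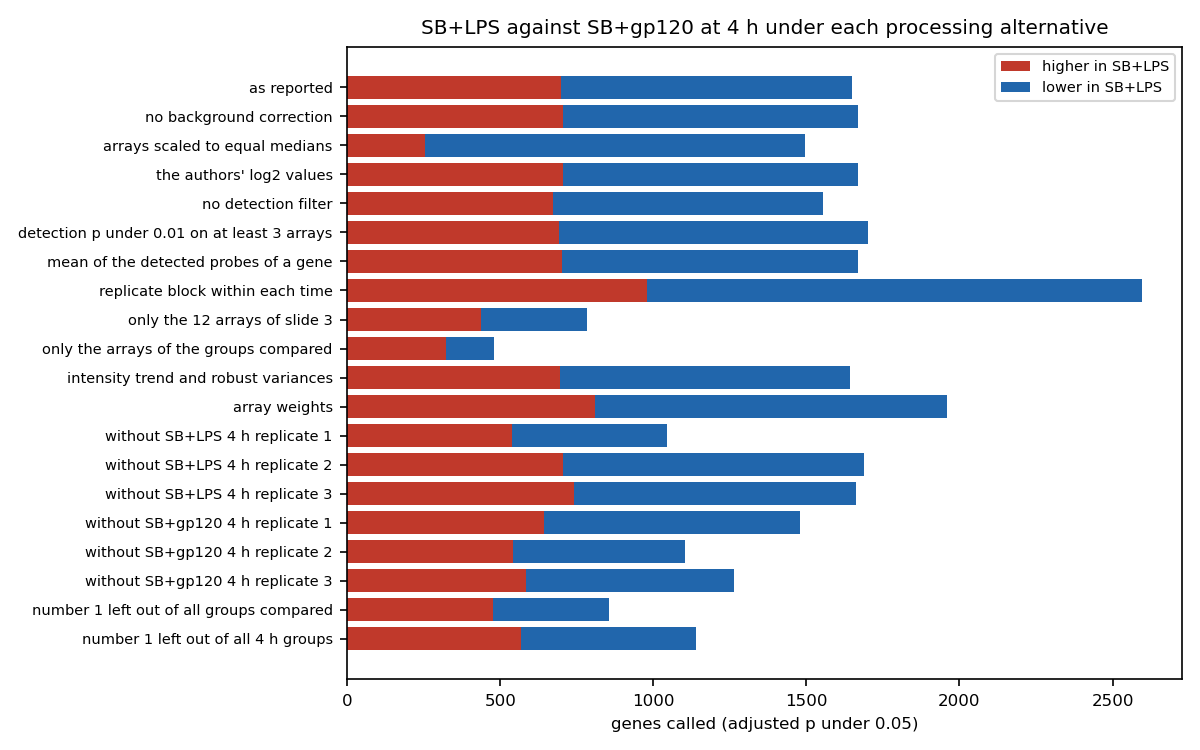
Number of genes called in SB+LPS against SB+gp120 at 4 h (horizontal axis, from 0) under each alternative (rows), red for higher and blue for lower in SB+LPS. The total runs from 481 with only the 6 arrays in the fit to 2597 with the replicate block, and equal medians have the fewest higher calls, 253.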

How the data were processed

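Per the labels, RNA of THP-1 cells was extracted with Trizol and an RNeasy column with DNase treatment, checked on a Bioanalyser, and hybridised as biotinylated cRNA. The deposited non-normalized table gives for each array, per the file headers, the mean intensity of the beads and the detection p-value of 47222 probes, and 36 columns of bead standard errors were not used. The authors also deposited log2 values, which equalled quantile-normalised raw log2 intensity to within 0.000791. The series text names GeneSpring GX. The other steps of the authors' processing are not given in the sources used here. Array slides were read from the file headers, and no 2 arrays held the same values.

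Raw intensities were corrected for background, quantile-normalised and log2-transformed with neqc (offset 16) in limma 3.58.1 under R 4.3.3. Probes with a detection p under 0.05 on at least 3 arrays were kept (26473). Symbols came from the platform annotation, with current names looked up by gene ID in a RefSeq table (30112 probes with 1 symbol, 8 with several, 17102 with none, 30073 matched), and each gene took its brightest probe, which left 13582 genes. Of 3777 genes with several detected probes, 3 had probes called in both directions: DDX31, SON and TBX1. All 36 arrays entered 1 lmFit and eBayes model of 12 group means, with two-sided tests and Benjamini-Hochberg adjustment within each comparison. An exact permutation test of 3 against 3 arrays cannot give a p under 0.1, so none was run. The scripts were tested on simulated data. The number of arrays limits the precision. A fold is written as "at least" where all arrays of the dim group failed detection: it sets the bright group's mean against, per dim array, the higher of its own value and the lowest signal among detected probes.

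Members, 33 gene lists and comparisons were chosen with earlier results of these data known. Named genes are the 12 largest called rises and falls with no overlap between arrays, the called genes of each list with the largest differences (at most 4), and 23 fixed genes, of which 22 were measured. The time difference takes 5 genes each way, and a comparison with fewer than 5 calls its 5 smallest p-values. Genes outside this rule named in the text (NFKB2, RELB, REL, NFKB1, RELA, IL12B, IL12A, ISG15, OAS1, IRF5, MAPKAPK2, KLF4, MYC, SPRY2, TRIM5, HLA-DRA, CD74, ITGAL, ALAS2, CXCL12, MAF, MAP3K7, MS4A1, MYD88 and TLR2) were chosen after their values were seen.

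Deviations from the group means of arrays with the same replicate number correlated at 0.448, 0.138 and 0.408 between SB+LPS and SB+gp120 at 4 h, 0.676, 0.294 and 0.563 between SB+gp120 and SB, and 0.301, 0.117 and 0.127 at 24 h. The highest correlations with another number were −0.157, 0.132 and 0.0757 between SB+LPS and SB+gp120 at 4 h. Mean raw signal also rose with the number in both of these groups, so pairing and shared brightness cannot be told apart. The numbers were taken to pair the arrays, and counts with a replicate block within each time are given where they differ by more than 1.5 times. Promoter windows were matched by symbol for 91 of the 125 named genes, and for 79.4% of the genes tested, too few for a comparison between sets of genes. The alternatives were other background, scaling, detection and probe settings, the authors' log2 values, smaller fits, an intensity trend with robust variances, array weights, and arrays left out.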

Additional observations from a re-analysis of the deposited data

Results flagged for a closer look

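The difference of SB+LPS minus SB+gp120 was itself unequal at 4 h and 24 h for 613 genes by the limma interaction test, and the 5 largest in each direction are given. Values below are the difference at 4 h minus that at 24 h. Larger at 4 h were the chemokine CCL4L1 (4.66, adjusted p = 4.52e-06), TNFAIP6 (4.54, adjusted p = 1.33e-05), the ciliary assembly factor DNAAF1 (4.36, adjusted p = 1.32e-08), the fatty acid elongase ELOVL7 (4.18, adjusted p = 5.53e-06) and the costimulatory receptor CD40 (3.84, adjusted p = 1.84e-04). DNAAF1 measured 9.93, 9.07 and 9.29 in SB+LPS arrays against 5.37, 5.16 and 5.13 in SB+gp120 arrays at 4 h, and was above background in neither group at 24 h. ELOVL7 measured 10.91, 9.51 and 9.76 in SB+LPS arrays against 5.73, 5.89 and 5.80 in SB+gp120 arrays at 4 h.

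Larger at 24 h were the matrix protease MMP9 (−4.75, adjusted p = 3.53e-06), CD300A (−4.07, adjusted p = 6.40e-04), the adaptor SLA (−3.70, adjusted p = 2.84e-05), RIPOR2 (−3.51, adjusted p = 9.10e-06) and the calgranulin S100A12 (−3.44, adjusted p = 1.59e-05). MMP9, RIPOR2 and S100A12 were above background on none of the SB+LPS and SB+gp120 arrays of 4 h, nor was DNAAF1 on those of SB+gp120 or CD300A on those of SB+LPS. Their time differences are fitted values that depend on the background level, and so does their rank. MMP9 measured 11.72, 10.25 and 10.22 in SB+LPS arrays against 6.15, 5.55 and 5.03 in SB+gp120 arrays at 24 h. SLA was called in opposite directions at the 2 times: it differed by −1.74 at 4 h (adjusted p = 0.00130) and by 1.95 at 24 h (adjusted p = 7.94e-04), while CD300A at 24 h, 1.26, was not called (adjusted p = 0.203). At 24 h both groups lay on another slide than at 4 h, where an additive slide effect cancels in the difference. Without the dim array, replicate 1 of SB+LPS at 4 h, CCL4L1 was at 4.36, CD40 at 3.34, MMP9 at −4.88 and S100A12 at −3.44, and all 10 genes were still called.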

How the results depend on the processing

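For SB+LPS against SB+gp120 at 4 h, 1650 genes were called, and 783 with only slide 3 in the fit, 481 with only the 6 arrays, 2597 with the replicate block and 856 without replicate 1 of both groups. Leaving out 1 array gave 1043 (without replicate 1 of SB+LPS) to 1687. At 24 h the 622 calls became 359 with equal medians (89.4% higher, against 62.9%), 1264 with the replicate block, 1525 with array weights, 384 without replicate 1 of both groups, and 370 (without replicate 3 of SB+gp120) to 604 with 1 array out, with 409 without replicate 2 of SB+LPS. The time difference of 613 became 346 with equal medians (11.8% toward 4 h, against 45.2%), 326 with only the groups compared, 1414 with the replicate block, 1133 with array weights, 247 without replicate 1, and 378 (without replicate 3 of SB+gp120 at 24 h) to 697 with 1 array out. SB+gp120 against SB gave 72 with array weights and 0 to 1 (without replicate 1 of SB+gp120) with 1 array out. With equal medians 10 of 33 list medians changed sign, among them those of the interferon regulatory and JAK-STAT (−0.265), apoptosis (−0.0942) and metallothionein (−0.0957) lists. Equal medians aligned the median of all probes, which lay at background. Causes were not tested. Of the 115 called named genes, 32 lost the call with equal medians, 41 with only the 6 arrays, 20 with only slide 3 and 15 without replicate 1 of SB+LPS. The replicate block changed no call of a named gene. For genes above background on no array of a group, fitted differences depend on the background level.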
